A study of Mus musculus with 8 samples.

Results

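The genes described here are 6 genes of matrix remodelling in wounded skin, Mmp3, Mmp9, Tnc, Tnfaip6, Pdpn and Mfap5, out of 5080 genes with a symbol in the authors' deposited table and 33793 probe sets on the arrays. They were chosen by symbol from that table, whose probe sets all differ between the genotypes by more than 0.5 on the log2 scale with an adjusted p below 0.05, and with earlier results of these data known. Their differences between the genotypes are therefore given as a description, with no test. In the authors' deposited table their adjusted p ran from 0.000594 for Tnfaip6 to 0.0379 for Mfap5, and the smallest log2 change was the 0.70 of Mmp9. Mfap5 and Mmp9 thus lay nearest to the limits on the inside, and the probe sets just outside carry no symbol in the files used here.

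Skin was taken from the back of mouse embryos of stage E18.5, on a background labelled C57B/6J, and 4 embryos of each genotype were measured on 1 Affymetrix Gene Mouse 2.0 ST array each. The KO embryos were KRT14-Cre(tg/0)/Cdsnfl/fl and lacked corneodesmosin, the adhesive protein of the outermost cell junctions, in the epidermis. The WT embryos were KRT14-Cre(tg/0)/Cdsnwt/wt, so every embryo carried the Cre transgene, whose keratin 14 promoter is active in the basal keratinocytes of the epidermis and its appendages. All skins of both genotypes were tape-stripped with a D-Squame disk of 22 mm and then kept on Dermalife medium for 4 h at 37 °C, and RNA was extracted from the total skin. No unstripped skin is among these samples, so the response to stripping itself was not measured. The labels name neither litters nor sexes.

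Cdsn had a mean log2 intensity of 8.38 in KO and 11.84 in WT skin, a change of −3.46 ± 0.20 (SE), and was lower in every array labelled KO than in any labelled WT. Every SE of a log2 change given here is the moderated SE of the limma fit, which also draws on the other probe sets. It therefore differs from an SE computed from the printed SDs. The cornified envelope genes Flg and Lor, markers of the outer epidermis, were bright in every skin (12.04 to 13.05 log2 intensity). They were lower in KO skin by 0.57 and 0.53. Of 8 suprabasal keratinocyte markers these 2 fell, and the other 6 are not named in the authors' deposited table. Median log2 intensities of the arrays were 4.81 to 4.88 for KO and 4.70 to 4.80 for WT. Over all probe sets the median log2 change was 0.09, and centring each array on its median shifted it by −0.11. KO replicate 3 and WT replicate 1 stood apart from their groups in an earlier analysis of these data, and without both the log2 differences of the members were 2.73 for Mmp3, 0.69 for Mmp9, 2.31 for Tnc, 1.97 for Tnfaip6, 1.30 for Pdpn and 0.49 for Mfap5.

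Matrix remodelling in a wound joins enzymes that cut the matrix, proteins newly laid into it and receptors by which cells hold it. Mmp3 (stromelysin 1) and Mmp9 (gelatinase B) encode secreted zinc proteases, made as inactive proforms, that cut matrix proteins and are known from keratinocytes, fibroblasts and leukocytes of wounds. Tnc encodes tenascin-C, a large glycoprotein that appears at the edge of healing wounds and is sparse in resting skin. Tnfaip6 encodes a secreted protein, induced by inflammatory cytokines, that binds hyaluronan and moves protein chains onto it. Pdpn encodes podoplanin, a mucin-like membrane protein of lymphatic endothelium that keratinocytes also make in wounds. Mfap5 encodes a glycoprotein of the fibrillin microfibrils and is a product of fibroblasts.

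The bases before the start of transcription are shown first for the members that hold the letters TGANTCA, the AP-1 motif, which reads the same on both strands. AP-1 is the family of FOS and JUN transcription factors, known as regulators of metalloproteinase genes. RefSeq promoters (GRCm38.p6) matched 4 of the 6 members, and the motif was found in 2 of them, Mmp3 and Tnfaip6. Both matches read TGAGTCA, shown in capitals within the 250 bases before the start.
Mmp3, chr9:7445572-7445821, plus strand: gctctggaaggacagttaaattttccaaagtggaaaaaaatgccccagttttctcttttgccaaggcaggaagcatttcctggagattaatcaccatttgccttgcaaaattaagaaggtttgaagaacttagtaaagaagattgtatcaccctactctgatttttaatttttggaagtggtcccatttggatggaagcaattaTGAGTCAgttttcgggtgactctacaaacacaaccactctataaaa
Tnfaip6, chr2:52037863-52038112, plus strand: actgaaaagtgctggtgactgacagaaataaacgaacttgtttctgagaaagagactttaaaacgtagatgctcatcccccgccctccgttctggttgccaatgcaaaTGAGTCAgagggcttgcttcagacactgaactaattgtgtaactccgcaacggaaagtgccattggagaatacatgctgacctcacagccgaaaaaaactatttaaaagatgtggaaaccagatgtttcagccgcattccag

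In Mmp3 the match lay 46 to 40 bases before the start, and in Tnfaip6 142 to 136 bases before it. The same letters stood in 6.75% of all 32851 promoter windows of this length. They stood in 8.48% of the windows of genes higher in KO skin in the authors' deposited table and in 6.66% of those of genes lower in it. The windows of Tnc and Pdpn do not hold these letters. The NF-kB motif, searched on both strands, was in none of the members' windows and in 1.41% of all. The motif TTCNNNGAA of STAT factors, which reads the same on both strands, was in the window of Tnfaip6, 209 to 201 bases before the start, and in 7.02% of all windows. No match of one motif overlapped a match of another in the members. A match describes letters and was not tested as a binding site.

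All 6 members were read by 1 probe set each, of 23 to 30 probes, and all 6 probe sets had the annotation class 1. Each had a higher mean in KO than in WT skin. In 5 of the 6, all 4 KO values lay above all 4 WT values, as they did in 17.6% of all probe sets. The members were selected on this contrast, and nothing is read from that count. The exception was Mfap5. Since whole skin was measured, more cells of a type and more RNA per cell cannot be told apart.

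**Figure D1:**
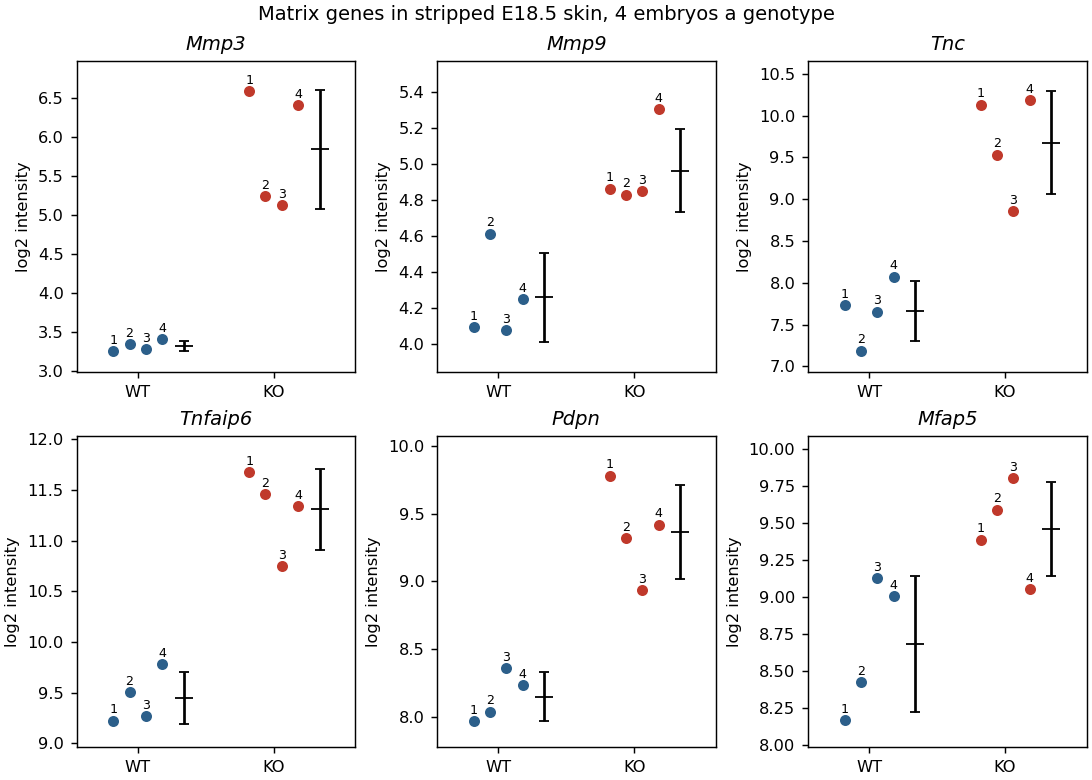
Log2 intensity (vertical axis of each panel) of the 6 genes in WT and KO skin. Each point is 1 embryo with its replicate number, and the bar beside each group is the mean ± SD of 4 embryos; the groups are apart in every panel but that of Mfap5, where KO replicate 4 at 9.05 lies below WT replicate 3 at 9.13.

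Among the proteases, Mmp3 had the largest difference of the 6. Its log2 intensity was 6.59, 5.24, 5.13 and 6.40 in KO replicates 1 to 4 and 3.26, 3.34, 3.28 and 3.40 in WT replicates 1 to 4. The WT embryos were nearly equal, within 0.14, whereas the KO embryos spread over 1.46, with replicates 1 and 4 above replicates 2 and 3. The lowest KO value still lay 1.72 above the highest WT value. KO skin averaged 5.84 ± 0.76 (SD, n = 4) and WT skin 3.32 ± 0.07 (SD, n = 4), a log2 difference of 2.52 ± 0.30 (SE) or 5.73-fold. The WT values were below the median of their arrays, and no background or detection value was used here, so how far the low WT level limits this fold is unknown.

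Mmp9 was dim in both genotypes. It read 4.86, 4.83, 4.85 and 5.31 in KO replicates 1 to 4 and 4.10, 4.61, 4.08 and 4.25 in WT replicates 1 to 4. KO replicate 4 was the highest of all and WT replicate 2 the highest of its group, and a gap of 0.22 separated the genotypes. KO skin averaged 4.96 ± 0.23 (SD, n = 4) and WT skin 4.26 ± 0.25 (SD, n = 4), a log2 difference of 0.70 ± 0.16 (SE) or 1.63-fold. Mmp9 is also a gene of neutrophils and macrophages. Of 12 neutrophil markers 3 rose and 0 fell by the limits of the table (limma), or 25% against 11.8% of all probe sets. The other 9, Csf3r, Cxcr2, Ly6g, Mpo, Elane, Camp, Ltf, Ngp and Retnlg, are not named in that table. Which cells of the whole skin made the RNA of the 3 that rose, S100a8, S100a9 and Trem1, was not measured. The mean log2 level of these 3 was 4.98 to 6.27 in KO and 3.96 to 4.57 in WT skin, highest in KO replicate 4 and, among WT, in replicate 2. Of 14 macrophage and dendritic cell markers 11 rose and 0 fell in the same fit, or 78.6%, with a mean level of 6.92 to 7.23 in KO and 6.20 to 6.51 in WT skin. That level was highest in KO replicate 2, the lowest KO embryo of Mmp9, and lowest in KO replicate 1. Among WT it was highest in replicate 2, as were Mmp9 and the neutrophil markers. After centring, S100a8, Lyz2 and H2-Aa no longer passed (limma adjusted p = 0.0616, 0.0657 and 0.0626). Only markers that had changed carry a name here, so these ranges describe changed markers, and their part in the level of Mmp9 was not tested.

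Tnc, the matrix glycoprotein, read 10.13, 9.53, 8.86 and 10.18 in KO replicates 1 to 4 and 7.73, 7.19, 7.65 and 8.07 in WT replicates 1 to 4. KO replicates 1 and 4 were the highest, as for Mmp3, and KO replicate 3 the lowest of its group, 0.79 above the highest WT value. The means were 9.68 ± 0.62 (SD, n = 4) and 7.66 ± 0.36 (SD, n = 4), a log2 difference of 2.02 ± 0.29 (SE) or 4.04-fold.

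Tnfaip6 read 11.68, 11.46, 10.75 and 11.34 in KO replicates 1 to 4 and 9.22, 9.50, 9.27 and 9.78 in WT replicates 1 to 4. KO replicate 3 was again the lowest of its group, and the gap between the genotypes, 0.97, was wider than either group's range. The means were 11.31 ± 0.40 (SD, n = 4) and 9.45 ± 0.26 (SD, n = 4), a log2 difference of 1.86 ± 0.20 (SE) or 3.63-fold. The gap was wider than both groups' ranges in Mmp3 too, and in none of the other 4 members.

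Pdpn, the membrane protein, read 9.78, 9.32, 8.93 and 9.42 in KO replicates 1 to 4 and 7.97, 8.04, 8.36 and 8.23 in WT replicates 1 to 4. Its KO order had replicate 1 highest and replicate 3 lowest, as in Tnfaip6. The means were 9.36 ± 0.35 (SD, n = 4) and 8.15 ± 0.18 (SD, n = 4), a log2 difference of 1.21 ± 0.18 (SE) or 2.32-fold. Of the 6 markers of lymphatic endothelium, another source of podoplanin in skin, 0 are named in the authors' deposited table. Such a gene was not measured, lay outside the authors' limits or could be among the 299 listed probe sets without a symbol.

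Mfap5, the microfibril gene, read 9.39, 9.59, 9.81 and 9.05 in KO replicates 1 to 4 and 8.17, 8.43, 9.13 and 9.01 in WT replicates 1 to 4. WT replicates 3 and 4 stood near KO replicate 4, and the groups overlapped by 0.07. The means were 9.46 ± 0.32 (SD, n = 4) and 8.68 ± 0.46 (SD, n = 4), a log2 difference of 0.78 ± 0.23 (SE) or 1.71-fold. Its WT embryos spread over 0.96, the widest WT range of the 6, and the difference was 0.49 without KO replicate 3 and WT replicate 1. Of 11 other fibroblast markers, Thy1 and Pi16 rose and 0 fell by the limits of the table (limma), or 18.2% against 11.8% of all probe sets. The other 9 are not named in that table, and neither Thy1 nor Pi16 passed after centring. The mean log2 level of those 2 was 8.19 to 8.56 in KO and 7.32 to 7.94 in WT skin, and their part in the level of Mfap5 was not tested.

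The KO embryos did not rank alike in all 6 genes. KO replicate 3 was the lowest KO embryo in 4 members, Mmp3, Tnc, Tnfaip6 and Pdpn, and the highest in Mfap5. KO replicate 1 was the highest in 3 (Mmp3, Tnfaip6 and Pdpn), and KO replicate 4 was the highest in Mmp9 and Tnc and the lowest in Mfap5. In log2 intensity above the WT mean, KO replicate 3 stood at 1.81 in Mmp3, 1.20 in Tnc, 1.30 in Tnfaip6 and 0.78 in Pdpn, and at 1.12 in Mfap5. KO replicate 1 stood at 3.27, 2.47, 2.23 and 1.63 in the first 4 of these genes and at 0.71 in Mfap5. Over all probe sets KO replicate 3 was the lowest KO array in 24.4%, and among probe sets listed as higher in KO in 39.6%.

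**Figure D2:**
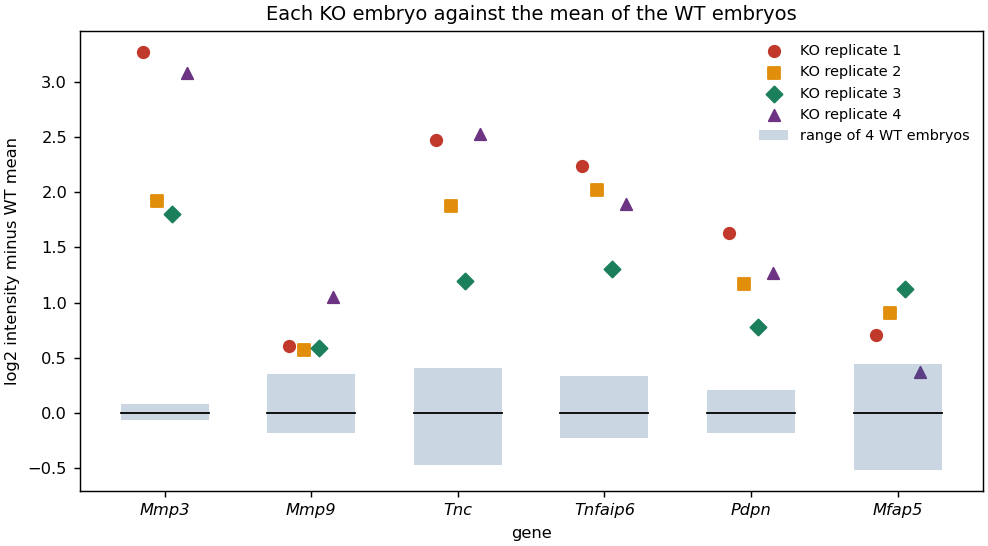
Log2 intensity of each KO embryo minus the mean of the 4 WT embryos (vertical axis) for the 6 genes (horizontal axis). Symbols are the 4 KO embryos and the shaded boxes the range of the WT embryos; KO replicate 3 is lowest in Mmp3, Tnc, Tnfaip6 and Pdpn and highest in Mfap5, and KO replicate 4 lies inside the WT range in Mfap5 alone.

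For each member, the 3 genes most like it were taken among 3030 named genes by Pearson's r of log2 intensity over the 8 arrays. These r values are descriptions, and the arrays fall into the 2 genotypes by which every candidate was selected. Mfap5 was most like Pi16 (r = 0.992), a gene of the fibroblast marker list, followed by Akr1c18 (0.981) and Igfbp6 (0.979), which encodes a binding protein of insulin-like growth factors. After subtracting each genotype's mean, r with Pi16 was 0.981. Over all the pairs given here that r ran from 0.912 (Mmp9 with Gtf2f2) to 0.990 (Tnc with Mex3c), so a high value was not particular to Pi16. Pi16 read 7.71, 7.99, 8.12 and 7.37 in KO replicates 1 to 4 and 6.28, 6.35, 7.42 and 7.23 in WT replicates 1 to 4, so its KO and WT embryos fell in the same order as those of Mfap5. Pdpn was most like the cytokine gene Lif (0.994), Rgs4 (0.993) and the chemokine gene Ccl2 (0.990). Tnfaip6 was most like the claudin gene Cldn4 (0.994), the inflammatory caspase gene Casp4 (0.993) and Pstpip2 (0.992). Tnc was most like Mex3c (0.998), Eea1 (0.996) and the kinase gene Rock2 (0.995), and Mmp3 like the phosphate transporter gene Slc20a1 (0.994), Robo3 (0.992) and Appl1 (0.991). Mmp9 had the loosest likeness, to Lsm1 (0.982), Gtf2f2 (0.972) and Il1rapl1 (0.971). No gene stood among the nearest 3 of more than 1 member.

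The annotation terms of the authors' deposited table put 4 of the 6 members (Mmp3, Mmp9, Tnc and Mfap5) in the extracellular matrix and 4 (Mmp3, Mmp9, Tnc and Tnfaip6) in the extracellular space. Of 40 other listed genes with the term proteinaceous extracellular matrix, 35 were higher and 5 lower in KO skin, or 87.5% higher, with a median log2 change of 0.70. Of 24 other listed genes with the term metalloendopeptidase activity, carried by Mmp3 and Mmp9, 17 were higher and 7 lower, or 70.8% higher. Of 213 with the term extracellular space 82.2% were higher. Of all 5080 named genes, 74.0% were higher, with a median log2 change of 0.62.

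The other genes of matrix remodelling were taken from 10 lists of 211 genes, 6 of them the members. Of the 205 others, 29 rose and 4 fell in KO skin by the authors' limits (limma with Benjamini-Hochberg adjustment), or 14.1% and 1.95%. Of all 33793 probe sets, 11.8% rose and 4.4% fell by these limits, so the lists as a whole had a share of rises near that of all probe sets. The other 172 genes have no entry by name in the authors' deposited table, which does not show that they were unchanged. The median change of the 33 named genes was 0.75, and after centring 27 of them had an adjusted p under 0.05 and 25 also kept a log2 change over 0.5 in size. Passing after centring refers throughout to the adjusted p alone. Of these 33, Mmp7, Mmp12, Mmp13, Mmp21, Plg, Itih2, Bcan, Comp, Spp1, Lama1, Klkb1 and Hapln2 lay below the median probe set level. Signal over background was not measured here, which limits the reading of the changes of these dim genes. KO replicate 3 was the lowest KO embryo in 21 of the 29 genes that rose.

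The lists differed in how many genes were named. Besides Mmp3 and Mmp9, 7 of 21 metalloproteinase genes rose and 0 fell, or 33.3% against 11.8% of all probe sets. In all 7, every KO value lay above every WT value, as in 17.6% of all probe sets. Of the 33 named list genes, 30 had no overlap in either direction, and the share of all probe sets for either direction is not given here. Named genes were selected on this contrast, and nothing is read from these counts. All 7 metalloproteinase genes had an adjusted p under 0.05 after centring, where the log2 change of Mmp17 was 0.47. They were Mmp10 (log2 change 1.59 ± 0.27, SE; limma adjusted p = 0.00335), Mmp12 (1.52 ± 0.16; 0.000577), Mmp13 (1.35), Mmp7 (0.97), Mmp21 (0.94), Mmp19 (0.85) and Mmp17 (0.58). Mmp10 encodes stromelysin 2, the close relative of Mmp3, Mmp12 the elastase of macrophages and Mmp13 a collagenase. Mmp13 missed the threshold without KO replicates 1 or 4 and without any of the 4 WT replicates (limma adjusted p = 0.0516 to 0.0751). It also missed the threshold after cyclic loess (limma adjusted p = 0.0515). Its log2 change was 1.03 without KO replicate 1 and 1.70 without KO replicate 3. Of 6 inhibitor genes Timp1 rose, by 1.55 ± 0.26 (SE), from 4.92 to 5.52 log2 intensity in WT to 6.29 to 7.55 in KO skin (limma adjusted p = 0.00375), and the other 5 are not named. The inhibitor thus rose in the same skins as the proteases, and its KO embryos, like those of Mmp3 and Mmp13, were higher in replicates 1 and 4 than in 2 and 3. That order held in 15 of the 29 list genes that rose, in 4 of the 6 members and in 18% of all probe sets. Its share among the probe sets listed as higher in KO was not computed, so nothing is read from these counts.

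Mmp3 lies in a cluster of 10 metalloproteinase genes on chromosome 9, in the RefSeq order Mmp13, Mmp12, Mmp1b, Mmp3, Mmp1a, Mmp10, Mmp8, Mmp27, Mmp20 and Mmp7, with 0 other protein-coding genes between them. The 5 that are named all had higher means in KO skin, and Mmp1b, Mmp1a, Mmp8, Mmp27 and Mmp20 are not named in the authors' deposited table. Mmp10 read 6.36, 6.15, 5.37 and 6.66 in KO replicates 1 to 4 and 4.61, 4.72, 4.02 and 4.82 in WT replicates 1 to 4. Replicate 4 was its highest KO embryo, with replicate 2 near replicate 1 and replicate 3 the lowest. Mmp12 was even among the KO embryos, at 4.80, 4.86, 4.68 and 5.03, against 3.39, 3.74, 3.15 and 3.01 in WT. Mmp13 was uneven, at 5.37, 3.88, 3.38 and 5.08 in KO against 2.88 to 3.20 in WT skin. Mmp7 read 4.15, 4.48, 4.36 and 3.84 in KO replicates 1 to 4 and 3.12 to 3.51 in WT skin, so replicates 2 and 3, the lowest KO embryos of Mmp3, were its highest.

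**Figure D3:**
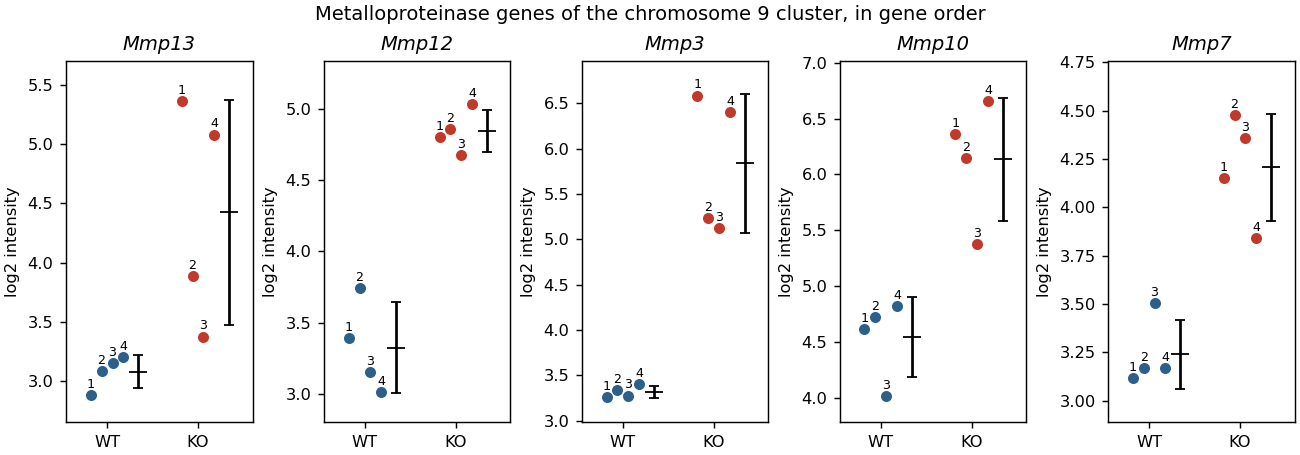
Log2 intensity (vertical axis of each panel) of the 5 named metalloproteinase genes of the chromosome 9 cluster, in RefSeq gene order, in WT and KO skin. Points are embryos with their replicate number and bars the mean ± SD of 4 embryos; KO replicates 1 and 4 are the highest in Mmp13, Mmp3 and Mmp10, while Mmp7 is highest in KO replicates 2 and 3.

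All 5 of these genes held the AP-1 letters in a RefSeq window before a start, as did 3 of the 5 cluster genes that are not named in the table (Mmp1b, Mmp1a and Mmp20). The match of Mmp3 is shown above, and those of the other named genes are printed with 20 bases on either side (GRCm38.p6, plus strand), the match in capitals, so that their surroundings can be compared.
Mmp13, chr9:7272459-7272505: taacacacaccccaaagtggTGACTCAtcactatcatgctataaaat
Mmp12, chr9:7347310-7347356: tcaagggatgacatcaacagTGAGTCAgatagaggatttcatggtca
Mmp10, chr9:7502259-7502305: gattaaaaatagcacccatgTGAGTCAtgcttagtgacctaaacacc
Mmp7, chr9:7692007-7692053: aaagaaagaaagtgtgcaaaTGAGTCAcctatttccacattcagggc

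The match lay 35 to 29 bases before the start in Mmp13 and 44 to 38 in Mmp12, near the 46 to 40 of Mmp3. In both Mmp10 and Mmp7 it lay 63 to 57 bases before the start. Mmp12 and Mmp7 have 2 RefSeq windows each, and in both 1 of the 2 held the match. Over the 20 other named list genes with a window, 7 held the letters, among them also Plaur, Serpinb2 and Itih2.

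In the plasminogen list, whose proteases activate metalloproteinases, 6 of 9 genes rose and 1 fell, or 66.7% and 11.1%. Serpinb2, an inhibitor of plasminogen activators, rose by 1.57 ± 0.25 (SE), and Plaur, the receptor of urokinase, by 1.56 ± 0.32 (limma adjusted p = 0.00275 and 0.00888). Plaur read 8.92, 8.11, 7.37 and 8.88 in KO replicates 1 to 4, the order seen in Mmp3, and 6.47 to 7.30 in WT skin. The urokinase gene Plau rose by 0.85, the plasminogen gene Plg by 0.54 and the activator gene Plat by 0.54, and the kallikrein gene Klkb1 fell by 0.68. After centring, Plat no longer passed (limma adjusted p = 0.0951). Plg passed after centring with a log2 change of 0.43, and missed the threshold after quantile normalization and cyclic loess (limma adjusted p = 0.0539 and 0.0553). Plat also missed the threshold without KO replicates 1 or 2 or WT replicates 1, 2 or 4 (limma adjusted p = 0.0546 to 0.0769).

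Around Tnfaip6, 6 of 28 other genes of the hyaluronan matrix rose and 1 fell, or 21.4% and 3.57%, and all 7 passed after centring. Ptx3, a pentraxin that joins the protein of Tnfaip6 in hyaluronan matrices, rose by 1.34 ± 0.26 (SE; limma adjusted p = 0.00655). It read 9.33, 8.67, 7.87 and 8.46 in KO replicates 1 to 4 against a WT mean of 7.24 ± 0.23 (SD, n = 4), with KO replicate 1 highest and 3 lowest as in Tnfaip6. Tmem2, a cell surface hyaluronidase, rose by 1.04, the hyaluronan synthase gene Has1 by 1.03 and the hyaluronan receptor gene Cd44 by 0.75. Itih2, which encodes a heavy chain of the inter-alpha-inhibitor that the protein of Tnfaip6 moves onto hyaluronan, rose by 0.74, and the proteoglycan gene Bcan by 0.69. The link protein gene Hapln2 fell by 0.79. Itih2 missed the threshold without KO replicate 3 and WT replicate 1 (limma adjusted p = 0.0677).

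Around Tnc, 3 of 22 other tenascin and matricellular genes rose and 0 fell, or 13.6%. These were Nov (1.15 ± 0.24, SE; limma adjusted p = 0.00844), of the CCN family, the osteopontin gene Spp1 (0.75) and Comp (0.64), and all 3 passed after centring. Nov read 8.66 to 9.22 in KO and 7.22 to 8.50 in WT skin. Around Mfap5, 0 of 22 other genes of elastic fibres and microfibrils are named, among them the fibrillin genes. Of 18 interstitial collagen and small proteoglycan genes 0 are named, and of 24 basement membrane genes only Lama1, which rose by 0.66. Of 26 ADAM and ADAMTS protease genes 2 rose, Adam8 (1.09) and the aggrecanase gene Adamts4 (0.84), and 2 fell, Adamts7 (−0.57) and Adamts15 (−0.64). Adam8 no longer passed after centring (limma adjusted p = 0.0548) or without KO replicates 2 or 4 or WT replicates 1, 2 or 3 (0.0575 to 0.0848). Adamts7 missed it without KO replicate 2 or WT replicates 1 or 3 (limma adjusted p = 0.0634 to 0.0704). Without both KO replicate 3 and WT replicate 1, Adam8, Adamts7 and Plat missed it (limma adjusted p = 0.0695, 0.0806 and 0.0676).

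Around Pdpn, 3 of 29 other genes of matrix receptors and podoplanin partners rose and 0 fell, or 10.3%, near the share of all probe sets. These were the integrin genes Itga5 (0.67) and Itgb1 (0.50), whose products form the fibronectin receptor, and the syndecan gene Sdc4 (0.65). None of the 3 passed after centring (limma adjusted p = 0.0654, 0.0958 and 0.0694). Itga5 also missed the threshold without KO replicates 1, 2 or 4 or WT replicates 2 or 4 (limma adjusted p = 0.0555 to 0.0777), Itgb1 without the same KO replicates or WT replicates 2, 3 or 4 (0.0566 to 0.0888), and Sdc4 without those KO replicates or WT replicates 3 or 4 (0.0508 to 0.105).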

How the data were processed

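Total RNA of 8 skins was measured. The chip type, per the file headers, is Affymetrix Gene Mouse 2.0 ST. The deposited values are log2 intensities per probe set, for which the submitters' processing notes name RMA; its settings, and a genome build, are not given in the sources. The authors' deposited table gives group means, linear fold changes as a ratio and p-values, per the file headers.

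The values were fitted as deposited in limma 3.58.1 (R 4.3.3; lmFit, eBayes, KO minus WT, no covariate) over all 33793 probe sets with Benjamini-Hochberg adjustment and a threshold of 0.05, a fit checked on simulated data. The fit returned the p-values of the authors' table. Names exist for that table alone, so list counts are of its genes. One probe set, that with the highest mean, stood for a gene. Members and lists were chosen with earlier results of these data known; the text names the members, every list gene past the limits but 1, which is counted but not reported here, and the 3 genes most like each member (predicted and receptor symbols left out). Nothing in the labels says that embryos came from separate litters, so p-values reflect only how these 8 embryos vary, and 4 arrays a genotype limit precision. The remaining marker lists were read beside no member. Rises were 0 of 8 for basal keratinocytes, 1 of 8 (12.5%) for mast cells and 3 of 7 (42.9%) for T cells. They were 1 of 9 (11.1%) for muscle, 1 of 6 (16.7%) for nerve and 1 of 7 (14.3%) for fat cells. For melanocytes they were 2 of 7 (28.6%) and for blood vessels 2 of 9 (22.2%). Falls were 0 in each of these lists. Of 8 suprabasal keratinocyte markers 0 rose and 2 (25%) fell. Of all probe sets 11.8% rose and 4.4% fell. Alternatives were other scalings, filters, variance models, a replicate block and left-out arrays.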

Additional observations from a re-analysis of the deposited data

Results flagged for a closer look

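In 80 groups of 4 values (the members, the 33 named list genes and Cdsn), 3 held a value that stood apart from the other 3 by Dixon's 95% limit on the gap over the range, and chance flags about 1 in 20 groups, or 4 here. Mmp9 was highest in KO replicate 4 at 5.31 log2 intensity, the others lying at 4.83 to 4.86. Mmp7 was highest in WT replicate 3 at 3.51, with the others at 3.12 to 3.17. Adamts7 was lowest in KO replicate 2 at 5.21, with the others at 5.54 to 5.60.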

How the results depend on the processing

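Over all alternatives run, the log2 differences of the members kept their sign and ranged from 2.27 to 2.76 in Mmp3, 0.57 to 0.82 in Mmp9, 1.85 to 2.31 in Tnc, 1.73 to 2.05 in Tnfaip6, 1.06 to 1.36 in Pdpn and 0.49 to 0.93 in Mfap5. Leaving out probe sets below the median level, which also removes Mmp3 and Mmp9, cut the changed probe sets from 7194 to 3299 and the list genes that rose from 29 to 19 and that fell from 4 to 2, since fewer were tested. Without variance moderation 4923 probe sets changed in all, and 18 list genes rose and 3 fell. The cause was not tested. The share of rises among changed probe sets was 71.4% as deposited, 49.1% after centring, 50.5% after quantile normalization and 50.5% after cyclic loess, with 23, 23 and 21 list genes rising by adjusted p alone. With the replicate number as a block 6250 probe sets changed and 27 list genes rose and 4 fell. Same-numbered arrays deviated together with r of −0.03 to 0.23. Differently numbered arrays were not compared, so these values cannot tell whether the numbers pair the embryos. Without KO replicate 3 and WT replicate 1, 26 list genes rose and 3 fell. Of the 33 list genes, 13 missed the threshold in at least 1 of up to 16 alternatives and 0 changed sign. Signal over background was not measured here, which limits the reading of dim genes such as Mmp9.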
